A study of Mus musculus with 6 samples.

Results

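The data set holds 46 homeobox transcription factor genes of the retina, chosen by symbol from the LIM, Iroquois, Pax, Onecut, Meis, Pbx, Dlx, Vsx and Vax families, Six3 and its relatives and other families, among the 24060 genes of the count table. The Isl and Pou4f genes were not among them. RNA-seq had been carried out on retinal ganglion cells (RGCs), the neurons whose axons form the optic nerve, from C57BL/6 mice at embryonic day 18 (E18, 3 samples, numbered 1, 3 and 4) and postnatal day 5 (P5, 3 samples, numbered 6, 8 and 9). The cells had been purified by immunopanning, in which dissociated retinal cells are first cleared of macrophages and then held on dishes coated with antibodies against CD90 (Thy1), and no treatment was given at either age. The study compared the ages because RGCs lose their capacity for axon growth between them. The labels do not say how many animals were pooled or whether the samples of an age came from separate pools, so p-values measure only the spread between these samples.

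Homeobox genes encode transcription factors that bind DNA through a homeodomain, and combinations of them divide the embryonic eye field, the optic stalk and the retinal cell types from one another. Some of them, such as Pax6, Rax, Six3, Six6 and Lhx2, are known for maintaining retinal progenitors, and others for single lineages, such as Crx and Otx2 in photoreceptors, Prox1 and Onecut1 in horizontal cells, and Dlx1 and Dlx2 in RGCs and amacrine cells. The Meis and Pbx proteins, of the TALE class, bind DNA together with other homeodomain proteins.

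Library totals ranged from 81213639 to 114512853 counts. The summed level of 15 RGC marker genes lay between 9577 and 11342 CPM (counts scaled to a common library size) in all 6 samples. Within that sum, 5 genes were higher at E18, 5 were lower and 5 did not pass the test described below. Thy1, the panning antigen, was 2.24-fold higher at P5, and Isl1 was 2.15-fold higher at E18. The 11 microglia markers summed to at most 3.16 CPM. The 3 E18 samples differed in genes of other retinal cells. After removal of the homeobox genes described here, 9 retinal progenitor markers summed to 289, 135 and 41.7 CPM in E18 replicates 1, 3 and 4 and to 24.3 to 36.9 CPM at P5. The 14 genes of dividing cells summed to 425, 187 and 127 CPM at E18 and to 97.5 to 118 CPM at P5. Amacrine cell markers, 11 genes, summed to 105, 210 and 16.6 CPM at E18 and to 20.5 to 30.3 CPM at P5, with Ptf1a and Tfap2c under 1 CPM in every sample. Tfap2b alone held 47.5, 119 and 1.62 CPM of the E18 sums. Of 9 amacrine markers tested, 5 were higher at E18 and 4, with Slc6a9 and Gad2 among them, did not pass. The 9 endothelial and pericyte markers summed to 72.5, 64.5 and 16.4 CPM at E18 and to 14.6 to 17.7 CPM at P5. Nearly all of that sum at E18 was Kdr, at 69.5, 62.9 and 14.1 CPM, while Cdh5 and Cldn5 were at most 0.217 CPM in every sample. E18 replicate 1 was therefore highest in progenitor and division genes, E18 replicate 3 in amacrine genes, and E18 replicate 4 stood at 1.36, 1.19 and 0.659 times the P5 mean of the progenitor, division and amacrine lists. In bulk samples, fewer cells of a type and less RNA per cell cannot be told apart.

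Of the 46 genes, 36 passed the expression filter, which required about 0.108 CPM in 3 samples. In edgeR's quasi-likelihood test with Benjamini-Hochberg adjustment over 16449 genes, 18 of the 36 were higher at E18, 5 were lower and 13 did not pass an adjusted p of 0.05. Of all genes tested, 20.8% were higher at E18, 22.5% were lower and 43.4% were called in either direction. At least 2-fold changes were found for 12 of the 36 toward E18 and for 3 toward P5, against 6.39% and 9.53% of all genes. Lhx2, Dlx1 and Dlx2 passed the filter only through their E18 values and Barhl1 only through its P5 values. Among the 32 genes that passed it at both ages, 15 were higher at E18, 5 were lower and 12 did not pass the test. The E18 and P5 samples did not overlap for 27 of the 36 genes, 22 above and 5 below, against 56.1% of all genes. The median log2 fold change of E18 over P5 was 0.45 for the 36 genes and 0.00 for all genes, and the median of its absolute size was 0.77 and 0.39. Without E18 replicate 1 the counts were 18 higher and 5 lower, and without E18 replicate 3 they were 16 and 4.

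**Figure D1:**
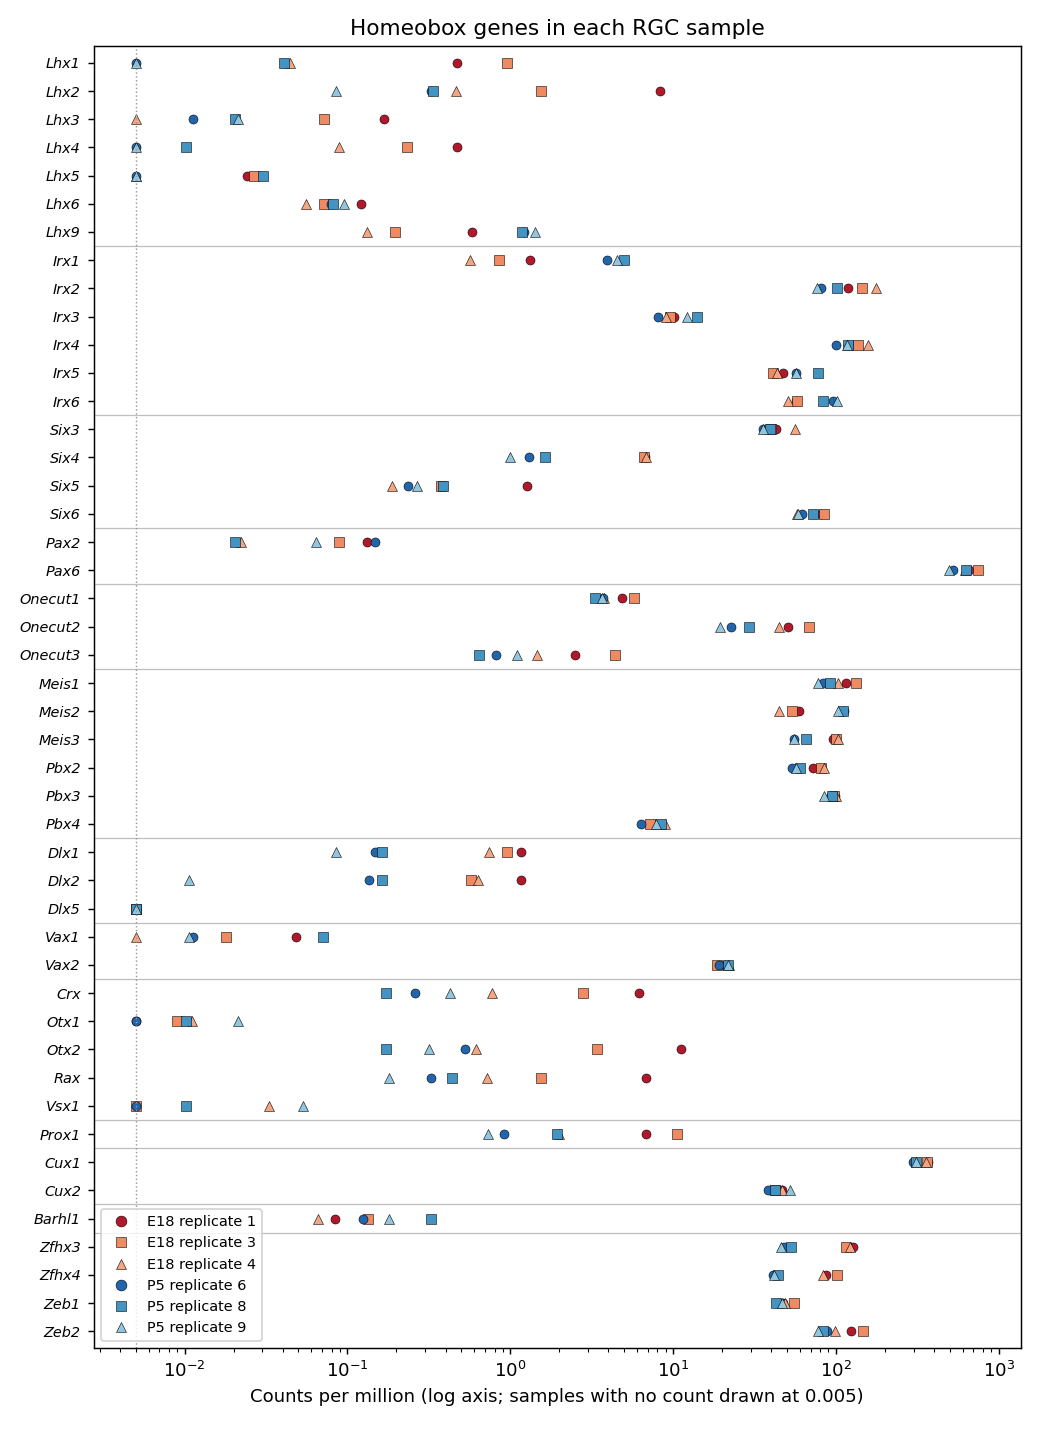
Level of each of the 46 homeobox genes in every sample, in CPM on a log axis, with E18 samples in reds and P5 samples in blues, one marker shape per replicate, and grey lines between families. Samples with no count are drawn at the dotted line. Pax6 and Cux1 lie farthest right, and the E18 samples are widely spread for Lhx2, Crx, Otx2, Rax and Prox1.

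**Figure D2:**
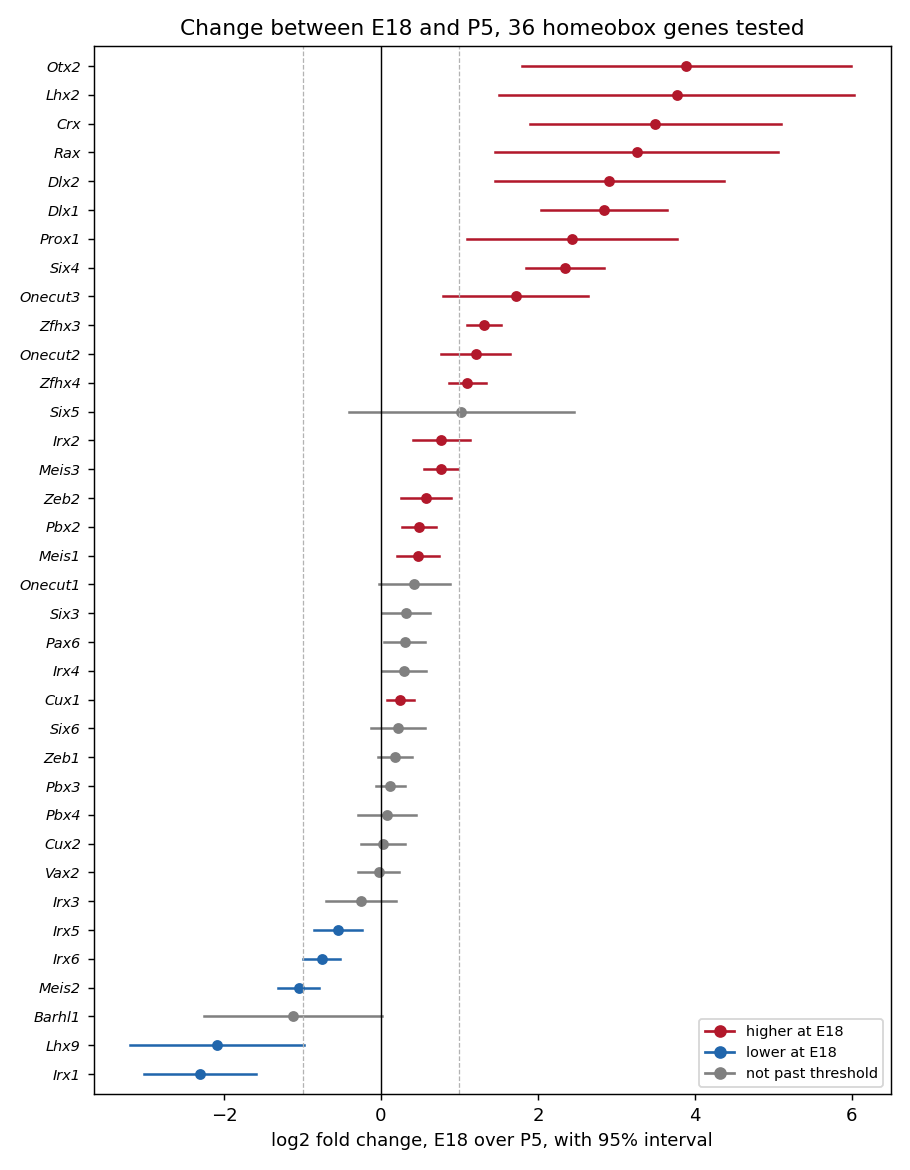
Fitted log2 fold change of E18 over P5 for the 36 genes tested, with unadjusted 95% intervals, in red for genes higher at E18, blue for genes lower at E18 and grey for genes past no threshold. Dashed lines mark 2-fold. Otx2 at 3.89 and Irx1 at -2.31 stand at the ends.

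Between genes, levels were compared per length, as CPM per kilobase of merged exons. Pax6, the regulator at the head of eye development, was highest at both ages, with a mean of 98.3 CPM per kilobase at E18 and 79.6 at P5. Irx2, Irx4 and Meis3 followed at E18 with 56.1, 52.9 and 52.7 CPM per kilobase, and their samples overlapped, so that their order does not exceed the spread. At P5 the next were Irx4 with 43.0, Irx2 with 32.9, Pbx3 with 31.9 and Meis3 with 31.0 CPM per kilobase. The samples of Irx2, Pbx3 and Meis3 overlapped at P5, and those of Irx4 and Irx2 did not. Levels from here on are in CPM without regard to length, in the order of E18 replicates 1, 3 and 4 and then P5 replicates 6, 8 and 9.

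Pax6 itself stood at 661, 751 and 622 CPM at E18 and at 521, 629 and 498 CPM at P5. P5 replicate 8 lay above the lowest E18 sample, and the log2 fold change of 0.30 (SE 0.11) did not pass the test (adjusted p = 0.0601). This call depended on the processing: it passed with upper-quartile normalization, DESeq2, the exact test, the likelihood ratio test or without P5 replicate 8, with adjusted p from 0.0158 to 0.211 over all alternatives. Of the other eye field genes, Six3 stood at 42.6, 40.1 and 55.9 CPM at E18 and at 35.7, 39.4 and 35.8 CPM at P5, with no overlap and a difference that did not pass (log2 0.32, adjusted p = 0.0842). Six6, which is required for normal RGC number, was measured at 58.1 to 84.8 CPM at E18 and at 58.6 to 72.5 CPM at P5, and it did not pass either (log2 0.22, adjusted p = 0.277). The optic stalk gene Pax2 was at or below 0.147 CPM in every sample and was not tested.

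Six4, a relative of Six3 better known from muscle and sensory organs, was higher at E18 by nearly the same amount in each sample. It stood at 6.69, 6.58 and 6.79 CPM at E18 and at 1.31, 1.64 and 0.999 CPM at P5. The 3 E18 samples were nearly equal, none overlapped with P5, and the gene was 5.08-fold higher at E18 (log2 2.35, SE 0.22, adjusted p = 0.00024). Six4 lies on chromosome 12 at 73099609 to 73113456 (mm10), 154.7 kilobases from Six6, which did not pass the test. Six5, at 1.27, 0.375 and 0.188 CPM at E18 and at 0.237, 0.386 and 0.266 CPM at P5, was high in E18 replicate 1 alone and did not pass (log2 1.02, adjusted p = 0.217). Without that sample its log2 fold change was -0.061.

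The Iroquois genes lie in 2 clusters of 3 genes, and in the first of them neighbours were called in opposite directions. On chromosome 13, Irx1, Irx2 and Irx4 span 71957921 to 73269608, and on chromosome 8, Irx3, Irx5 and Irx6 span 91798525 to 92680956 (mm10). Irx1 stood at 1.33, 0.847 and 0.563 CPM at E18 and at 3.95, 5.02 and 4.55 CPM at P5. Every P5 sample exceeded every E18 sample, and Irx1 was 4.95-fold higher at P5 (log2 -2.31, SE 0.31, adjusted p = 0.000913). Irx2, 665.1 kilobases away, went the other way, with 119, 145 and 178 CPM at E18 and 81.0, 101 and 77.0 CPM at P5 (log2 0.77, SE 0.16, adjusted p = 0.00567). Its highest sample was E18 replicate 4, the one with the lowest sums of progenitor and amacrine markers among the E18 samples. The part of other cells in the Irx2 difference was not tested. Irx4, known for a role in RGC axon guidance, lay at 118 to 158 CPM at E18 and at 101 to 119 CPM at P5, the groups overlapped, and the difference did not pass (log2 0.30, adjusted p = 0.0796; 0.40 and past the threshold without E18 replicate 1, with adjusted p from 0.0412 to 0.271 over all alternatives).

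In the chromosome 8 cluster, Irx6, also known from bipolar cells, stood at 56.5, 58.0 and 50.8 CPM at E18 and at 96.0, 82.9 and 101 CPM at P5. The ages did not overlap and Irx6 was 1.69-fold higher at P5 (log2 -0.76, SE 0.11, adjusted p = 0.00102). Irx5 stood at 47.0, 41.3 and 43.2 CPM at E18 and at 57.2, 78.1 and 57.1 CPM at P5 (log2 -0.55, SE 0.14, adjusted p = 0.0122), and this call was lost without E18 replicate 3 (adjusted p from 0.00118 to 0.0565 over all alternatives). Irx3 lay at 9.07 to 10.1 CPM at E18 and at 8.12 to 14.0 CPM at P5 and did not pass (log2 -0.25, adjusted p = 0.322). Without P5 replicate 6, Irx3 passed with a log2 fold change of -0.46 (adjusted p from 0.0428 to 0.68 over all alternatives). In all, 1 Iroquois gene was higher at E18, 3 were lower and 2 did not pass, with a median log2 fold change of -0.40. Of the bipolar cell markers, 8 genes other than those described here summed to 46.8 to 63.9 CPM at E18 and to 70.0 to 97.4 CPM at P5, most of it Prkca, and Grm6, which defines one class of bipolar cells, was at most 0.0362 CPM. Their part in the levels of Irx5 and Irx6 was not tested.

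**Figure D3:**
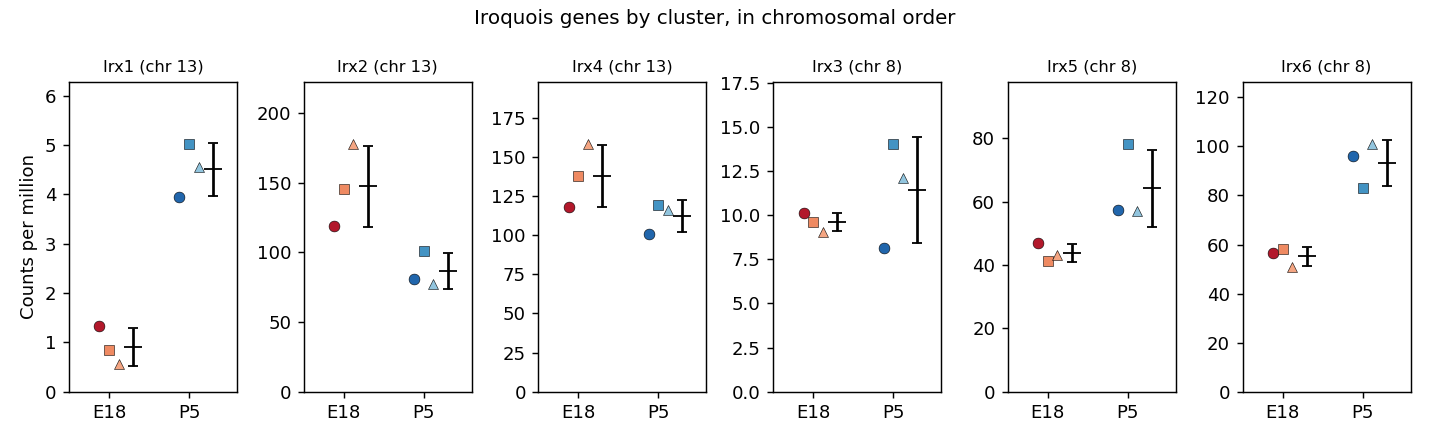
The 6 Iroquois genes in CPM (each axis from 0), ordered along chromosomes 13 and 8, with E18 samples in reds and P5 samples in blues (circle, square and triangle for replicates 1, 3 and 4 or 6, 8 and 9) and the mean with SD of the 3 samples beside them. Irx1, Irx5 and Irx6 were higher at P5, and Irx2 was higher at E18.

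The Meis genes also parted. Meis2, a cofactor also expressed in amacrine cells and progenitors, stood at 59.2, 53.6 and 44.9 CPM at E18 and at 112, 111 and 103 CPM at P5. The ages were far apart, and Meis2 was 2.06-fold higher at P5 (log2 -1.05, SE 0.11, adjusted p = 0.000413). Meis3 stood at 95.7, 101 and 102 CPM at E18 and at 55.5, 65.1 and 55.2 CPM at P5, higher at E18 (log2 0.77, SE 0.10, adjusted p = 0.000732). Meis1 stood at 115, 133 and 103 CPM at E18 and at 83.4, 92.5 and 77.6 CPM at P5 (log2 0.47, SE 0.12, adjusted p = 0.0125), a call lost without E18 replicate 3 (adjusted p from 0.00155 to 0.0571 over all alternatives). Of the summed CPM per kilobase of the 3 genes, Meis2 took 13.2% to 17.1% at E18 and 35.3% to 38.9% at P5, and Meis3 took 63.7% to 69.4% and 44.4% to 47.7%. The sum itself moved less, from 78.1 to 83.2 CPM per kilobase at E18 to 63.1 to 72.2 at P5.

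The Pbx genes, whose products pair with Meis proteins, changed less. Pbx2 stood at 72.6, 81.6 and 84.8 CPM at E18 and at 53.9, 60.02 and 57.0 CPM at P5, without overlap (log2 0.48, SE 0.10, adjusted p = 0.00467). Pbx3, the highest Pbx gene described here, lay at 97.5 to 100 CPM at E18 and at 85.1 to 94.0 CPM at P5 (log2 0.12, 95% interval -0.07 to 0.31, adjusted p = 0.27). Pbx4 lay between 6.35 and 8.97 CPM in all 6 samples and did not pass (log2 0.08, 95% interval -0.29 to 0.44).

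The large zinc finger homeobox factors Zfhx3 and Zfhx4, each with several homeodomains and zinc fingers, were both higher at E18 with little spread. Zfhx3 stood at 128, 115 and 122 CPM at E18 and at 47.9, 53.1 and 45.8 CPM at P5, 2.48-fold higher at E18 (log2 1.31, SE 0.10, adjusted p = 9.81e-05). Zfhx4 stood at 86.6, 102 and 82.9 CPM at E18 and at 41.3, 43.9 and 41.5 CPM at P5, 2.14-fold higher (log2 1.10, SE 0.10, adjusted p = 0.000243). Neither gene overlapped between the ages. The related repressors of E-cadherin, Zeb1 and Zeb2, moved less. Zeb2 stood at 124, 147 and 99.1 CPM at E18 and at 88.5, 83.2 and 77.8 CPM at P5 (log2 0.57, SE 0.14, adjusted p = 0.0116), and Zeb1 lay at 47.3 to 55.1 and 43.0 to 46.4 CPM and did not pass (log2 0.17, adjusted p = 0.171).

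Of the cut family, Cux1, second only to Pax6 in CPM, stood at 368, 363 and 360 CPM at E18 and at 298, 310 and 312 CPM at P5. The ages did not overlap, and the 1.18-fold difference passed the test (log2 0.24, SE 0.08, adjusted p = 0.0295). The call was lost without any of E18 replicates 1, 3 and 4 or P5 replicate 6 and without a filter on low counts (adjusted p from 0.00507 to 0.0969 over all alternatives). Cux2, an upper-layer marker of the cortex, overlapped between the ages at 42.4 to 46.6 and 38.6 to 52.0 CPM (log2 0.03, 95% interval -0.25 to 0.31). Vax2, which marks the ventral retina, also overlapped, at 18.6 to 21.9 and 19.3 to 21.9 CPM (log2 -0.03, 95% interval -0.29 to 0.22).

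The Onecut factors are known from horizontal cells, RGCs and cones. Onecut2 was the highest of them in CPM, with 50.9, 68.6 and 44.5 CPM at E18 and 22.6, 29.1 and 19.3 CPM at P5. It was 2.31-fold higher at E18 (log2 1.21, SE 0.19, adjusted p = 0.00188), without overlap. Onecut3 stood at 2.495, 4.39 and 1.47 CPM at E18 and at 0.812, 0.640 and 1.09 CPM at P5 (log2 1.71, SE 0.40, adjusted p = 0.00989). Onecut1 lay at 3.79 to 5.77 CPM at E18 and at 3.33 to 3.71 CPM at P5 and did not pass (log2 0.43, adjusted p = 0.113). For all 3 genes E18 replicate 3, the sample with the highest amacrine markers, was highest and E18 replicate 4 lowest of the E18 samples. Of the horizontal cell markers that are not homeobox genes described here, 6 genes summed to 198, 272 and 149 CPM at E18 and to 152 to 178 CPM at P5. Tfap2b, also an amacrine marker, held 47.5, 119 and 1.62 CPM of the E18 sums and at most 1.55 CPM at P5. Of the 5 tested, Tfap2b and Rxrg were higher at E18, Sept4 and Atp2b4 were lower and 1 did not pass. The part of horizontal cells in the Onecut differences was not tested.

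Prox1, which takes horizontal cell precursors out of the cell cycle, stood at 6.84, 10.6 and 1.999 CPM at E18 and at 0.914, 1.94 and 0.734 CPM at P5. It too was highest in E18 replicate 3, and E18 replicate 4 only just exceeded P5 replicate 8. The fitted difference was 2.43 on the log2 scale (SE 0.59, adjusted p = 0.0109), was 1.89 without E18 replicate 3, and did not pass without P5 replicate 6 (adjusted p from 0.00026 to 0.0574 over all alternatives).

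Dlx1 and Dlx2, neighbours on chromosome 2 with 9.426 kilobases between them, are known for activating RGC genes such as Pou4f2 and Ntrk2 and for GABA synthesis in the forebrain. Dlx1 stood at 1.16, 0.954 and 0.740 CPM at E18 and at 0.147, 0.163 and 0.0850 CPM at P5. Dlx2 stood at 1.16, 0.571 and 0.630 CPM at E18 and at 0.135, 0.163 and 0.0106 CPM at P5. Both were low, and both were higher in every E18 sample than in any P5 sample, by 7.16-fold for Dlx1 (log2 2.84, SE 0.36, adjusted p = 0.000697) and 7.52-fold for Dlx2 (log2 2.91, SE 0.64, adjusted p = 0.0073). E18 replicate 4 held 5.63 and 6.12 times the P5 mean of Dlx1 and Dlx2. Its progenitor markers summed to 41.7 CPM, 1.36 times their P5 mean and above every P5 sample (at most 36.9 CPM). Its amacrine markers summed to 0.659 times their P5 mean. The part of progenitors and amacrine cells in the differences of Dlx1 and Dlx2 was not tested. Both genes passed the filter through E18 alone, so a lower level at P5 was built into their being tested. No count fell on Dlx5 in any sample, which allows up to 0.0268 to 0.0362 CPM per library at 3 counts (for counting error only).

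Otx2, Crx, Rax and Lhx2 held the 4 largest log2 fold changes of the 36 genes, and all 4 rested on unequal E18 samples. Otx2, which directs photoreceptor and bipolar fate, stood at 11.1, 3.398 and 0.618 CPM at E18 and at 0.530, 0.173 and 0.319 CPM at P5 (log2 3.89, SE 0.92, adjusted p = 0.0101). Crx, the photoreceptor factor downstream of it, stood at 6.15, 2.78 and 0.773 CPM at E18 and at 0.259, 0.173 and 0.425 CPM at P5 (log2 3.49, SE 0.70, adjusted p = 0.00496). For both, E18 replicate 1 was highest and E18 replicate 4 lowest of the E18 samples, 17.99-fold apart for Otx2 and 7.95-fold for Crx, and the lowest exceeded every P5 sample.

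Rax, a gene of the eye field and of progenitors, stood at 6.86, 1.53 and 0.718 CPM at E18 and at 0.327, 0.437 and 0.181 CPM at P5 (log2 3.26, SE 0.79, adjusted p = 0.0113). Lhx2, which keeps progenitors in their state, stood at 8.26, 1.55 and 0.464 CPM at E18 and at 0.327, 0.335 and 0.0850 CPM at P5 (log2 3.77, SE 0.99, adjusted p = 0.0158). These 4 genes were highest in the sample with the highest progenitor and division genes, which stood at 9.41 and 3.99 times their P5 means there, at 4.41 and 1.75 times in E18 replicate 3 and at 1.36 and 1.19 times in E18 replicate 4. The part of those cells in the differences was not tested. Without E18 replicate 1 the log2 fold changes were 2.57 for Otx2, 2.64 for Crx, 1.84 for Rax and 2.02 for Lhx2, and all 4 passed the test. Lhx2 had passed the filter through E18 alone, so a lower level at P5 was built into its being tested. Rax did not pass without P5 replicate 6, nor did Lhx2 without P5 replicate 6 or P5 replicate 9 (adjusted p over all alternatives from 0.000181 to 0.0539 and from 0.000459 to 0.0603).

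Otx2 and Crx are known to drive photoreceptor genes. Of 9 photoreceptor markers tested besides these 2, Opn1sw and Pde6b were higher at E18, 1 was lower and 6 did not pass. The share higher at E18 over all genes tested was 20.8%. Opn1sw, the short-wavelength cone opsin, stood at 1.88, 1.32 and 0.707 CPM at E18 and at 0.474, 0.173 and 0.213 CPM at P5 (log2 2.19). The 11 markers without Otx2 and Crx summed to 7.03, 5.36 and 3.85 CPM at E18 and to 4.75 to 5.47 CPM at P5, so the groups overlapped.

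The upstream sequence of Crx is shown because Otx and Crx proteins are known to prefer the letters TAATCC, which contain the homeodomain core TAAT and read GGATTA on the other strand. RefSeq start sites (GRCm38.p6) were at hand for 33 of the 46 genes, with 50 starts. TAATCC on either strand occurred within 250 bases before 3 of these 50 starts, in Crx, Otx2 and Barhl1, and before 6.25% of all 32851 starts. TAAT occurred before 26 of the 50 starts and before 54.9% of all starts. The sequence lies on the minus strand at chr7:15879956-15880205, runs 5′ to 3′ up to the start site and, apart from its last bases, is upstream of the gene's annotated first exon. Capitals mark the 2 matches, whose first bases lie 94 and 21 bases before the start. A match is a run of letters and was not tested as a binding site.
Crx: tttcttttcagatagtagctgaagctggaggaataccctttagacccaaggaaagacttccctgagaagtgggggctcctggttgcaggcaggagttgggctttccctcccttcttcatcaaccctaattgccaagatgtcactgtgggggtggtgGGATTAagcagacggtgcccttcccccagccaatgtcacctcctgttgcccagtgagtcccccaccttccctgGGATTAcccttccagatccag

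Lhx9, a LIM-homeodomain relative of Lhx2, moved against it. It stood at 0.579, 0.196 and 0.133 CPM at E18 and at 1.22, 1.18 and 1.42 CPM at P5. All E18 samples lay below all P5 samples, E18 replicate 1 nearest to them, and Lhx9 was 4.25-fold higher at P5 (log2 -2.09, SE 0.49, adjusted p = 0.00961). Without E18 replicate 1 the log2 fold change was -2.93. Across the 36 genes, E18 replicate 1 was highest of the E18 samples for 15 genes, replicate 3 for 12 and replicate 4 for 9, against 27.6%, 31.4% and 40.9% of all genes tested. E18 replicate 4 was the lowest of them for 22 of the 36 genes (61.1%), against 31.3% of all genes. The highest E18 sample was at least 3 times the lowest for 7 of the 36 (19.4%), against 4.26% of all genes. Those were Lhx2, Lhx9, Six5, Crx, Otx2, Rax and Prox1. At P5 such a spread was found for 3 of the 36 (8.33%) and for 4.23% of all genes.

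**Figure D4:**
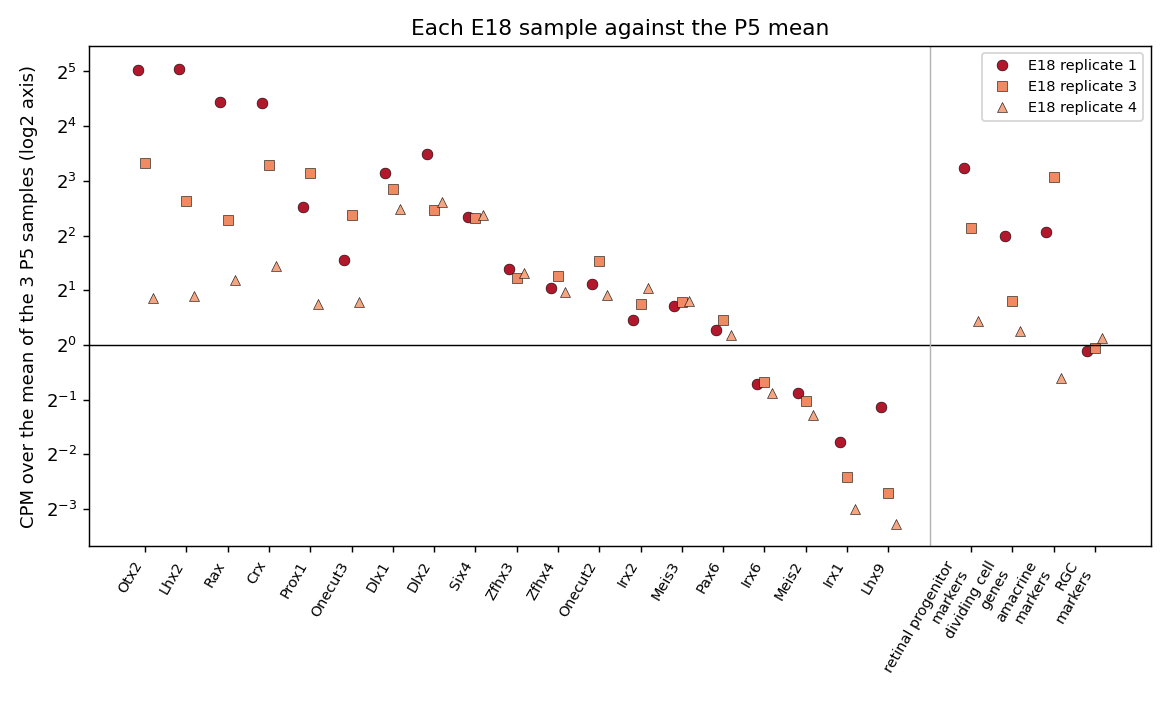
CPM of each E18 sample over the mean of the 3 P5 samples, on a log2 axis, for 19 homeobox genes (left) and for the summed CPM of 4 marker lists without those genes (right). Six4, Zfhx3 and Meis3 are nearly equal in the 3 samples, whereas Otx2, Lhx2, Rax and Crx, like the progenitor markers, are highest in replicate 1 and lowest in replicate 4.

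The remaining 10 genes were under the filter. Lhx1, which is required for horizontal cell placement, had 39, 107 and 4 counts at E18 and 0, 4 and 0 at P5, a ratio of 36.9 over the summed counts (exact 95% counting interval 14.1 to 137). Lhx4, known from bipolar cells and cones, had 39, 26 and 8 counts at E18 and 0, 1 and 0 at P5, a ratio of 71.9 (12.5 to 2877). Lhx1 was highest in E18 replicate 3 and Lhx4 in E18 replicate 1, and these intervals cover counting error only. In a fit without a filter on low counts both passed, with log2 fold changes of 5.01 (SE 1.11, adjusted p = 0.00426) and 5.76 (SE 1.01, adjusted p = 0.00098). Lhx3 had 14, 8 and 0 counts at E18 and 1, 2 and 2 at P5, a ratio of 4.33 (1.6005 to 14.6) that rested on E18 replicates 1 and 3, and it did not pass in that fit. Lhx5, Lhx6, Pax2, Vax1, Otx1 and Vsx1 had 13 counts or fewer in every sample and did not pass in that fit. Ratios over the summed counts were 0.943 (0.509 to 1.75) for Lhx6 and 1.08 (0.570 to 2.05) for Pax2. At this depth, differences within these intervals, which cover counting error only, were not detectable. Lhx5, Vax1, Otx1 and Vsx1 had fewer summed counts, and differences between the ages were not detectable for them. Barhl1, which passed the filter through P5, lay at 0.0663 to 0.134 CPM at E18 and at 0.124 to 0.325 CPM at P5, and did not pass the test (log2 -1.12, adjusted p = 0.0982).

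Of 43 other homeobox genes listed for comparison, 33 were tested, 16 were higher at E18 and 6 were lower, with a median log2 fold change of 0.28. Among those with a mean of at least 1 CPM, large log2 fold changes toward E18 were found for Hopx (2.86), Pou2f2 (1.78) and Tgif2 (1.12). Hopx stood at 7.21, 8.52 and 0.254 CPM at E18 and at 0.585 to 0.993 CPM at P5, so E18 replicate 4 lay below every P5 sample. For Pou2f2 and Tgif2 every E18 sample exceeded every P5 sample. Lower at E18 were Tshz2 (-1.73), Homez (-0.71) and Satb1 (-0.56).

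Among 22 cofactors of homeobox proteins, 21 were tested, 10 were higher at E18 and 2 were lower (median log2 0.25). Ldb1, which bridges LIM-homeodomain proteins, stood at 151, 149 and 154 CPM at E18 and at 71.4, 120 and 71.7 CPM at P5 (log2 0.78, SE 0.19, adjusted p = 0.0111), whereas its relative Ldb2 was lower at E18, with 14.2 to 19.9 CPM against 28.0 to 40.3 CPM (log2 -1.08). Eya1 (log2 0.94), whose product pairs with proteins of the Six3 family, and the corepressors Ctbp2 (0.98) and Tle1 (0.95) were higher at E18, and the corepressor Tle2 was lower (-1.44).

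Of 24 genes known to depend on homeobox factors, 23 were tested, 9 were higher at E18 and 3 were lower (median log2 0.36). Tfap2b, an amacrine and horizontal cell gene, stood at 47.5, 119 and 1.62 CPM at E18 and at 1.02 to 1.55 CPM at P5 (log2 5.39), and Fgf15, a progenitor gene, at 21.2, 4.27 and 0.884 CPM at E18 and at 0.0213 to 0.316 CPM at P5 (log2 5.33). Tfap2a (4.84) and the GABA transporter Slc32a1 (3.89) had the same order of E18 samples as Tfap2b, with E18 replicate 3 highest. Their ages overlapped: in E18 replicate 4, Tfap2a (0.133 CPM) lay within its P5 range of 0.0813 to 0.147 CPM. Slc32a1 (0.221 CPM) lay there below its P5 range of 0.226 to 0.356 CPM. Tfap2a and Fgf15 passed the filter only through E18. Ntrk2 and the Zeb target Cdh1 were lower at E18, with log2 fold changes of -0.38 and -1.42. Pou4f2, with Ntrk2 a known target of Dlx1 and Dlx2, lay at 174 to 189 CPM at E18 and at 184 to 255 CPM at P5 and did not pass (log2 -0.28, adjusted p = 0.0897).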

How the data were processed

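RNA-seq counts of 3 E18 and 3 P5 samples of immunopanned RGCs were analysed, grouped by sample title. The count column assigned to E18 replicate 1 has 2 and 5 in its name as well. Per the labels and methods, the authors depleted ribosomal RNA (the labels also name polyA RNA), aligned reads to mm10 with STAR and deposited raw counts per RefSeq gene from HT-seq. The strand setting is not given in the sources used here, and exons of 11 of the 46 genes overlap an antisense gene by 69 to 835 bases. The normalized counts (a signal scaled by the authors), log2 fold changes, p-values and rank score, also deposited by the authors, were not used.

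After TMM normalization, the quasi-likelihood test of edgeR 4.0.16 (R 4.3.3) was run on the 16449 genes that passed filterByExpr, with Benjamini-Hochberg adjustment at 0.05. CPM uses TMM-scaled library sizes, and lengths come from GENCODE. Replicates differed by more than sampling noise (chi-square per degree of freedom 30.5 to 141). The test was checked on simulated counts. All 46 genes are accounted for, with full statistics for those past the threshold and at least 2-fold, and for the highest of each family. In comparison lists, up to 4 called genes per direction with a mean of at least 1 CPM are named. Other context genes were named after their values were seen. Some genes that this rule would name are not reported here. The genes and lists were chosen with earlier results of these data known. Alternatives were other normalizations and filters, edgeR's likelihood ratio and exact tests, DESeq2 1.42.0 and the omission of each sample.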

Additional observations from a re-analysis of the deposited data

How the results depend on the processing

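Counts of called genes changed little with normalization or test. Across the omission of single samples, 15 to 21 of the homeobox genes were higher at E18 and 4 to 6 were lower. With at least 1 CPM required in 3 samples, 12 were higher at E18, only 6 of them at least 2-fold, and the median log2 fold change was 0.29. Otx2, Crx, Rax, Lhx2, Dlx1 and Dlx2 were among the genes no longer tested under that filter. Of the 43 other homeobox genes, 9 to 18 were higher at E18 (9 without P5 replicate 6, 10 without P5 replicate 9), and of the known targets 1 to 4 were lower (1 without E18 replicate 3). The cause was not tested. Among genes that did not pass, signs reversed on omission of a sample, with log2 fold changes of -0.080 to 0.16 for Cux2, -0.10 to 0.038 for Vax2, -0.050 to 0.15 for Pbx4 and -0.061 to 1.45 for Six5. With 3 samples an age, low genes such as Otx1, Vsx1 and Vax1 are limited by depth and others by the spread between samples. No paired analysis was possible because the ages share no replicate number.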
